A study of Mus musculus with 11 samples.

Results

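The microRNAs miR-101a and miR-101b are paralogs, and their levels were followed in the mouse oviduct after injection of lipopolysaccharide (LPS). Members were the probes named mmu-miR-101a and mmu-miR-101b, which gave 2 of the 566 mouse miRNA probes on the panel. They were selected on their measured differences between LPS and control mice, so the differences between treatments given for them here are a description and carry no test. All animals were CD1 female mice, an outbred strain, 6 to 8 weeks old and injected intraperitoneally on the day of estrus. Control mice (3 held here) received the injection without LPS. Low dose mice (4) received 2 µg and high dose mice (4) received 10 µg of LPS of E. coli serotype 055:B5. The volume was 100 µL of PBS, and oviducts were taken 24 h later. Total RNA of each mouse was counted in 1 lane of an nCounter cartridge, an assay that ligates a tag to each miRNA and counts fluorescent barcodes without amplification. The labels describe separate mice.

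A miRNA is a short RNA that lowers the output of messenger RNAs, which it finds mainly through its seed, the bases near its 5′ end. LPS, from the outer membrane of Gram-negative bacteria, is sensed by Toll-like receptor 4 and starts an inflammatory programme in leukocytes and epithelia. Among the messenger RNAs reported as bound by miR-101 are Ptgs2, the inducible prostaglandin synthase (in mouse uterus), Dusp1, a phosphatase that ends MAP kinase signalling (in mouse macrophages), and Ezh2, the histone methyltransferase of Polycomb repressive complex 2 (in human cancer cells).

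The mature sequences are shown because both probes read nearly the same RNA. They come from RefSeq (GRCm38.p6). The probe names carry no arm; in the older naming they use, the name without an arm stood for the 3p arm. Capitals mark bases 2 to 8, the seed.
miR-101a-3p: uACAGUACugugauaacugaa
miR-101b-3p: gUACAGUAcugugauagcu
As annotated, miR-101b-3p starts 1 base earlier and ends 3 bases sooner, so the capitals do not match although the RNA beneath them does. Over the 18 bases that both cover, 17 are identical, and the difference is A16G, counted from the 5′ end of miR-101a-3p with its base first. Read from the start of miR-101a-3p, the Mir101b hairpin gives the 21 bases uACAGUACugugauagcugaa, with the same seed in capitals and 20 of 21 bases identical. The sources used here do not say which of these ends the miR-101b probe was built for, and any capture of one paralog by the probe of the other was not tested.

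The genes lie on different chromosomes. The Mir101a hairpin is at chr4:101346945-101347027 on the minus strand and the Mir101b hairpin at chr19:29135279-29135375 on the plus strand (GRCm38.p6). Both hairpins are printed to show how much less alike they are outside the mature RNA, which is in capitals.
Mir101a: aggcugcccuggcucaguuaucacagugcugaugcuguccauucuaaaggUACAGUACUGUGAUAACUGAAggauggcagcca
Mir101b: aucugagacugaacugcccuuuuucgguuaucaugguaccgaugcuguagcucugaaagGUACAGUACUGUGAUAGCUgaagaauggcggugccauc
In a global alignment 69 bases were identical, 83.1% of the shorter hairpin with the mature RNA included. Between the 5p arms, which lie outside the capitals, 17 bases were identical, 77.3% of the shorter arm. In the RefSeq gene table Mir101a lies within the long noncoding RNA gene E130102H24Rik, and Mir101b within the bounds of Rcl1, which encodes a protein of ribosomal RNA processing. The nearest protein-coding neighbours of Mir101a are Jak1 and Ak4, and those of Mir101b are Ak3 and Jak2. Jak1 and Jak2 encode Janus kinases, and Ak3 and Ak4 encode adenylate kinases, so the flanks of both genes hold members of the same families.

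Total miRNA counts ran from 451323 to 684771 per lane. Detection meant a count above a bound set by the 8 negative controls of the same lane (their mean plus 2 SD) in no fewer than 3 lanes, which 205 miRNAs met. Both paralogs exceeded this bound in 11 of 11 lanes. Normalized counts were scaled by trimmed mean of M-values (TMM). In control mice the highest smooth muscle marker was miR-145 (31481 normalized counts), the highest ciliated cell marker miR-34c (21342) and the highest epithelial marker miR-200c (10604). The lowest detected markers of these lists were miR-133a (205), miR-449a (2176) and miR-203 (119) in that order. All 8 epithelial, both endothelial, all 5 leukocyte and all 3 erythroid markers were detected, while miR-449b and miR-449c (ciliated) and miR-133b (smooth muscle) were not. In whole tissue, fewer cells of a type and less RNA per cell cannot be told apart. Lane numbers in the file headers follow the order of treatments, so the place of a lane and its treatment cannot be told apart either.

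miR-101a stood at 99.7 ± 14.2 normalized counts in control oviducts (SD, n = 3), at 187 ± 39.8 at the low dose and at 288 ± 35.5 at the high dose (n = 4 each). Control mice 1 to 3 gave 105, 75 and 110 barcodes, which were 100.4, 85.2 and 114 after normalization. Low dose mice 1 to 4 gave 142, 186, 278 and 201 barcodes, or 136, 190, 233 and 189 normalized counts. High dose mice 1 to 4 gave 228, 308, 249 and 314 barcodes, or 286, 302, 240 and 324 normalized counts. No mouse of one treatment lay within the range of another, and the 3 treatments stood in the order of dose. The step from low to high dose was narrow at its edge, since high dose mouse 3 stood only 2.93% above low dose mouse 3. That gap is smaller than the counting error of either lane (6.34% and 6.00% of the count).

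As fitted log2 differences, miR-101a stood 0.91 ± 0.18 (SE) above control at the low dose, a fold of 1.87, and 1.53 ± 0.18 above it at the high dose, a fold of 2.88. High minus low dose was 0.62 ± 0.15, a fold of 1.54. The lowest value rested on few counts: 75 barcodes in control mouse 2, with a 95% Poisson interval from 59.0 to 94.0, were 1.10 times the detection bound of that lane. Such intervals cover counting error only.

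miR-101b was higher than control by a smaller factor at both doses, with 160.5 ± 12.8 normalized counts in control mice, 212 ± 30.4 at the low dose and 307 ± 49.7 at the high dose (SD). Control mice 1 to 3 gave 183, 137 and 146 barcodes, or 175, 156 and 151 normalized counts. Low dose mice 1 to 4 gave 217, 239, 266 and 183 barcodes, or 208, 244, 223 and 172 normalized counts. High dose mice 1 to 4 gave 237, 307, 264 and 363 barcodes, or 298, 301, 254 and 374 normalized counts. Low dose mouse 4 lay inside the control range, below control mouse 1, so control and low dose overlapped in this 1 mouse. That lane had the highest detection bound, 143, and its 183 barcodes were 1.28 times the bound. The bound was set largely by 1 negative control, which counted 162 there and 41 to 94 in the other lanes. The high dose mice lay above all others, by 4.32% between high dose mouse 3 and low dose mouse 2 and by 45.5% over the highest control. The gap of 4.32% is smaller than the counting error of either lane (6.15% and 6.47% of the count).

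The fitted log2 difference of miR-101b was 0.40 ± 0.15 (SE) at the low dose, a fold of 1.32. At the high dose it was 0.93 ± 0.15, a fold of 1.91, and high minus low dose was 0.54 ± 0.13, a fold of 1.45. The comparisons of each dose with control share the 3 control mice.

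**Figure D1:**
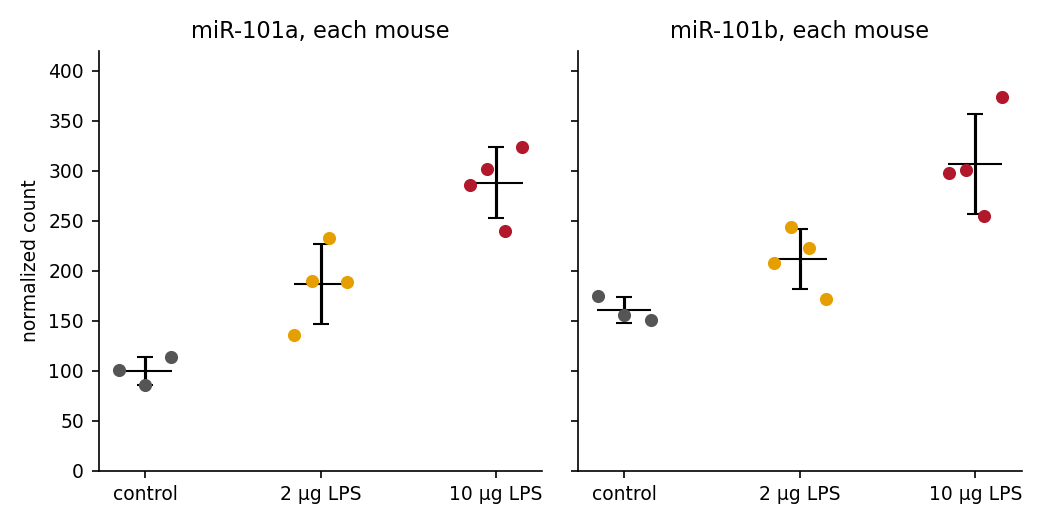
Normalized counts (y axis) of miR-101a and miR-101b in each mouse (points) by treatment (x axis), with the mean and SD of each treatment as black bars. The 3 treatments of miR-101a do not overlap, while for miR-101b 1 low dose mouse at 172 lies among the control mice, which reach 175.

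At the low dose 1 of the 2 paralogs, miR-101a, had all treated mice above all control mice, and 10.7% of the 205 detected miRNAs did. At the high dose both did, against 13.7% of detected miRNAs. Between high and low dose both did, against 2.93% (4.88% had all high dose mice below all low dose mice). Since these comparisons chose the pair, nothing is read from the counts. By fitted difference miR-101a ranked 3 of 205 at the low dose, 2 of 205 at the high dose and 2 of 205 between the doses, and miR-101b ranked 21, 8 and 5. The median miRNA differed by -0.0015 at the low dose and -0.03 at the high dose (log2). Neither paralog is abundant: by mean normalized count over all mice miR-101b ranked 123 and miR-101a 129 of 205.

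**Figure D2:**
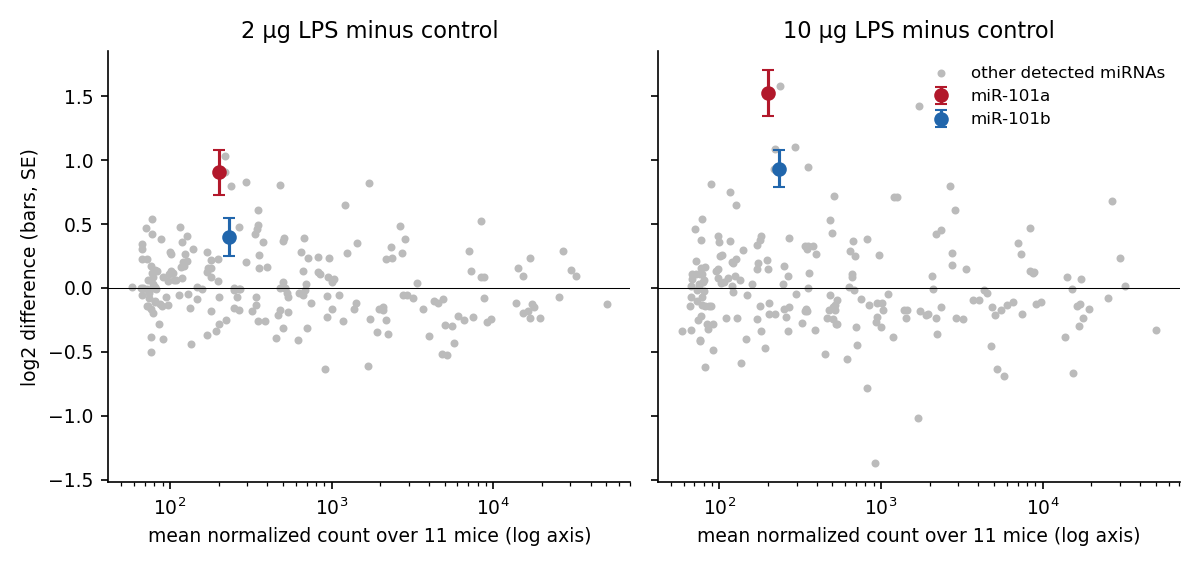
Fitted log2 difference from control (y axis) against mean normalized count over 11 mice (x axis, log scale) for the 205 detected miRNAs at each dose, with bars of 1 SE for the paralogs. At the high dose miR-101a stands at 1.53 and miR-101b at 0.93, in the lower range of abundance.

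The balance of the paralogs was read as the ratio of miR-101a to miR-101b barcodes within a lane, which no scaling between lanes can change. Probes can differ in efficiency, so the ratio serves to compare mice and does not say which RNA was more abundant. It was 0.574, 0.547 and 0.753 in control mice 1 to 3. It was 0.654, 0.778, 1.05 and 1.10 in low dose mice 1 to 4, which overlapped both other treatments. It was 0.962, 1.00, 0.943 and 0.865 in high dose mice 1 to 4, all above the controls. The mean ratio was 0.625 ± 0.112 (SD) in control mice, 0.894 ± 0.212 at the low dose and 0.943 ± 0.0579 at the high dose. After the mean of the negative controls was subtracted from both counts it was 0.534 ± 0.137, 0.878 ± 0.256 and 0.937 ± 0.0631. By SD the ratio varied most among low dose mice: low dose mouse 1 lay among the controls, mouse 2 just above them, and mice 3 and 4 above 1. The sum of both probes was 260 ± 17.6, 399 ± 54.8 and 595 ± 83.4 normalized counts in the order of dose, with no overlap between treatments. It made up 0.0447%, 0.0704% and 0.106% of all miRNA counts.

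**Figure D3:**
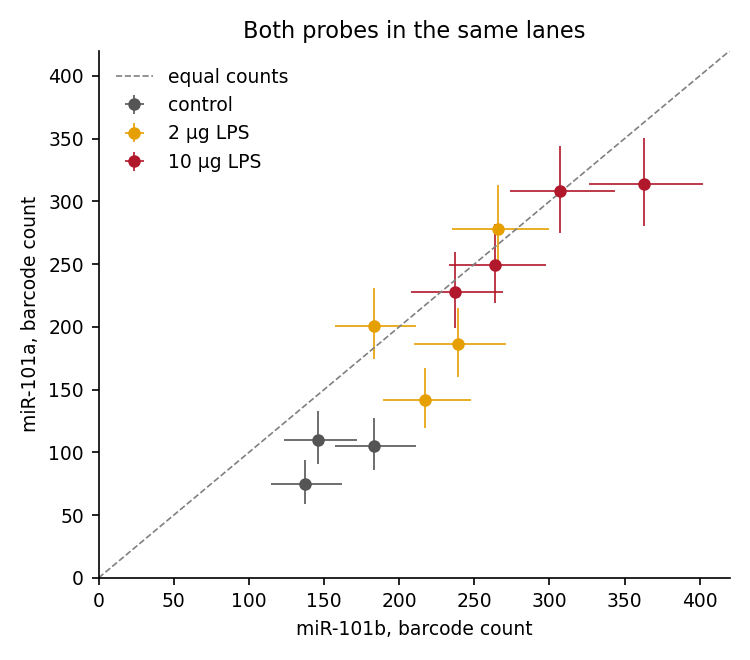
Barcode counts of miR-101a (y axis) against miR-101b (x axis) in the same lane for each of 11 mice, with 95% Poisson intervals and a dashed line of equal counts. Control mice lie below the line with ratios from 0.547 to 0.753, and high dose mice lie near it with ratios from 0.865 to 1.00.

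The spread between mice of 1 treatment can be set beside the error of counting in their lanes. For miR-101a the SD was 14.2%, 21.3% and 12.3% of the mean in the order of dose, where counting alone gives 9.53% to 11.5%, 6.00% to 8.39% and 5.64% to 6.62% per lane. For miR-101b the SD was 14.3% at the low dose and 16.2% at the high dose, where counting gives 6.13% to 7.39% and 5.25% to 6.50%. Among control mice the SD of miR-101b was 7.98%, no more than the 7.39% to 8.54% of counting. High dose mouse 4 was highest and high dose mouse 3 lowest of its group for both paralogs. In the low dose group the highest mouse was mouse 3 for miR-101a and mouse 2 for miR-101b.

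How far the dose groups separate depended on the scaling. With nCounter style scaling to the 100 most abundant miRNAs, DESeq2 size factors or the positive ligation controls, the groups overlapped or not exactly as above. With the positive controls alone, high and low dose overlapped for both paralogs, and the highest low dose mouse reached 290.0 for miR-101a against 259 in the lowest high dose mouse. With the mRNA reference probes, of which B2m itself differed between treatments, the high dose overlapped control for miR-101b (202 against 261) but not for miR-101a (194 against 149.6). With these probes miR-101a at the low dose overlapped control as well (109.9 to 324 against 90.6 to 149.6), as did miR-101b, and high and low dose overlapped for both paralogs. Without B2m among the probes, high and low dose again overlapped for both, and miR-101a at the low dose lay above control.

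**Figure D4:**
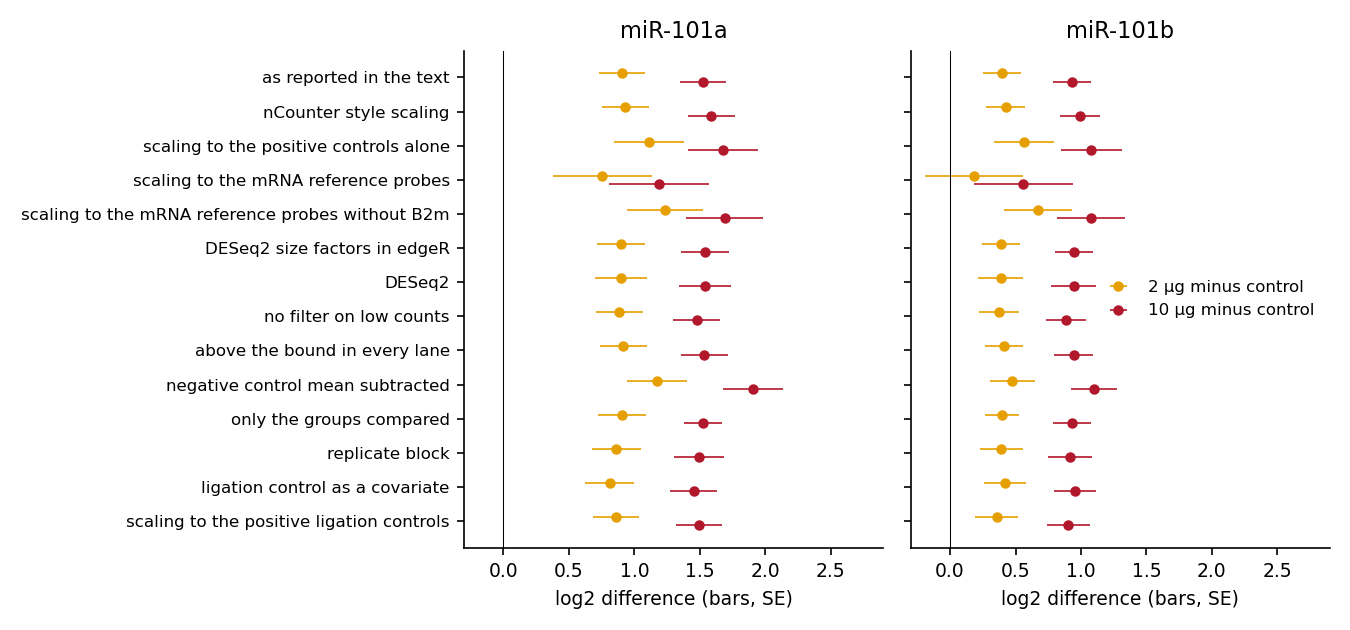
Fitted log2 difference from control (x axis, bars of 1 SE) of each paralog under each processing setting (y axis), at 2 µg and 10 µg. All values lie above 0, from 0.18 for miR-101b at the low dose with scaling to the mRNA reference probes to 1.91 for miR-101a at the high dose after subtraction of the negative controls. The bar of the lowest value crosses 0 (SE 0.38).

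The mRNA reference probe B2m, which encodes the light chain of MHC class I and is induced by interferon, was higher in LPS mice. With B2m scaled to the positive controls and miR-101a by TMM, control mice had the same order (mouse 2, mouse 1, mouse 3 from low to high). With miR-101a scaled to the positive controls as well, mouse 1 stood above mouse 3, so the orders differed. In both LPS groups the orders differed either way. Scaled to the positive controls, B2m was 732 ± 100.9 in control mice, 2863 ± 816 at the low dose and 4361 ± 2397 at the high dose (SD). High dose mouse 2 had only 884, near the highest control at 847, while its miR-101a stood at 302, inside its group. Low dose mouse 3 had the lowest B2m of its group, 1677, and the highest miR-101a, 233. Without high dose mouse 2 the high dose difference was 1.50 for miR-101a and 0.94 for miR-101b (log2). Without low dose mouse 3 the low dose difference of miR-101a was 0.78.

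Positive ligation controls relative to the positive controls also varied, from 4716 to 6762 in control lanes, 5497 to 7867 at the low dose and 5052 to 7341 at the high dose. With this quantity as a covariate miR-101a stood at 0.81 ± 0.19 (SE) and 1.45 ± 0.18 at the low and high dose, and miR-101b at 0.42 ± 0.16 and 0.95 ± 0.16. The summed leukocyte markers ranged from 3905 to 5364 normalized counts in control mice, 4896 to 5496 at the low dose and 3676 to 4424 at the high dose. All low dose mice thus lay above all high dose mice for the leukocyte sum, and control mice overlapped both. Singly, miR-142-3p separated these doses (1587 to 1928 at the low dose, 994 to 1549 at the high dose). The doses overlapped for miR-142-5p, miR-223, miR-150 and miR-342-3p. Erythroid markers ranged from 1425 to 4188, 1869.8 to 5445 and 2249.7 to 3134 in the order of dose. The 8 epithelial markers, among them miR-203 and miR-375, summed to 36637 to 38624, 29736 to 39513 and 34999 to 39865. Endothelial sums were 4840.4 to 6182, 5124 to 5738 and 5329 to 6957. Ciliated sums were 22287 to 32376, 20730.1 to 27024 and 21403 to 27699. Smooth muscle sums were 43540.2 to 55425, 41626 to 59982 and 41062 to 51749. No marker sum separated the treatments in the order of dose, but 2 of the 28 single markers did, both upward. Of the 205 detected miRNAs, 10.7% had all low dose mice above control and 2.93% had all high dose mice above low dose. The share with both is not given here, so nothing is read from this count. Endothelial miR-126-5p ranged from 874 to 1021 normalized counts in control mice, 1069 to 1214 at the low dose and 1257 to 1912 at the high dose, while miR-126-3p of the same hairpin overlapped between treatments. Epithelial miR-203 ranged from 111 to 131, 185 to 218 and 308 to 419.6. Epithelial miR-375 went the other way, with 1376 to 1446 in control mice, 656 to 1291 at the low dose and 373 to 875 at the high dose. Its 2 LPS groups lay below control and overlapped each other. The part of any cell type in the miR-101 levels was not tested.

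The miRNAs most like the pair were taken as the 5 with the highest Pearson r of log2(normalized count + 1) over the 11 mice. For miR-101a they were miR-30b (r = 0.96), miR-26a (0.95), miR-203 (0.94), miR-155 (0.91) and let-7c (0.91), and miR-101b came at rank 7 with 0.89. For miR-101b they were miR-26a (0.91), miR-155 (0.90), miR-101a (0.89), miR-203 (0.89) and let-7c (0.89). Each paralog thus had a higher r with some miRNAs of other families than with its paralog. These points share their lanes, their scaling and 3 treatments that differ, so r is given as a description.

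miR-26a, from the family reported with miR-101 to bind Ezh2, had 230 ± 24.5 normalized counts in control mice, 351 ± 54.8 at the low dose and 443 ± 75.6 at the high dose (SD). miR-203, enriched in epithelia, had 119 ± 10.4, 208 ± 15.8 and 357 ± 46.3. miR-155, induced in activated macrophages, had 377 ± 22.9, 493 ± 35.0 and 622 ± 97.4; the name of its probe carries a correction factor, and the sources used here do not say how it was applied. The abundant miR-30b and let-7c reached 3339.6 ± 299 and 33084 ± 6059 at the high dose, from 2185 ± 279 and 20658 ± 2006 in control mice. At the other end of the order, miR-375 (r = -0.93) was least like miR-101a and miR-1896 (r = -0.95) least like miR-101b.

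**Figure D5:**
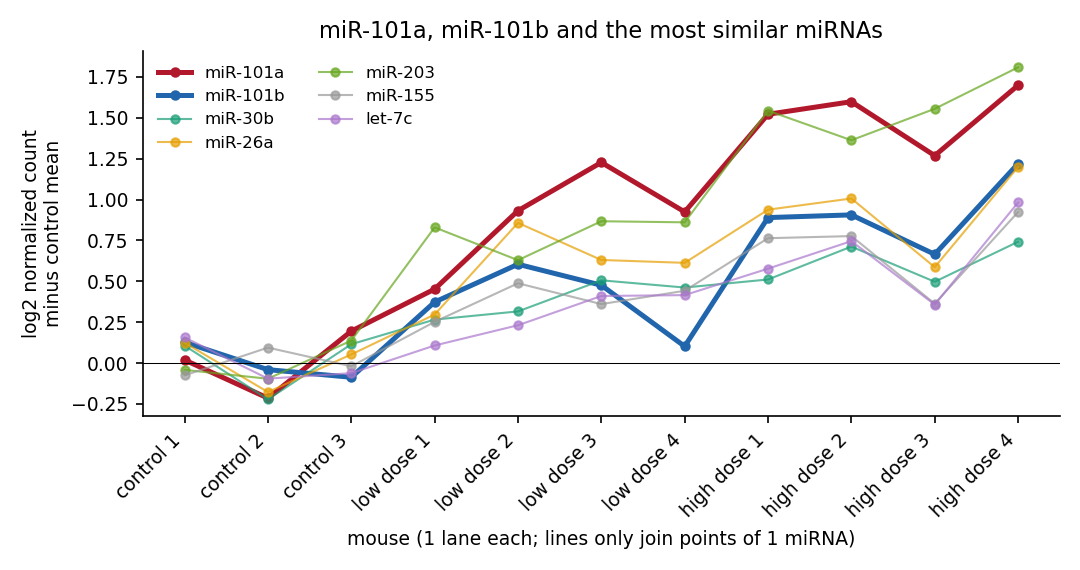
Log2 normalized count minus the control mean (y axis) in each of 11 mice (x axis) for miR-101a, miR-101b and the most similar miRNAs. miR-101a and miR-203 run highest in most LPS mice, and miR-101b lies near the control mean in low dose mouse 4.

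Other miRNAs were compared through lists, with edgeR quasi-likelihood tests adjusted over all 205 miRNAs. In that test 5.85% of detected miRNAs passed at the low dose (3.41% higher, 2.44% lower), 18.0% at the high dose (10.2% higher, 7.80% lower) and 0.488% between the doses. The lists were chosen with earlier results of these data known, and they overlap: miR-144, miR-146a and miR-26b each stand in 2 of them. Over all lists, 24 of 28 miRNAs were detected. Counts by unadjusted p or by DESeq2 are given without their share over all miRNAs, so nothing about the lists is read from them.

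The first list held the probes whose RefSeq sequence shares bases 2 to 7 with a paralog. They are printed to show how far the match goes, with bases 2 to 8 in capitals.
miR-144-3p: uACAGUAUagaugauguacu
miR-582-5p: aUACAGUUguucaaccaguuac
miR-144, an erythroid miRNA, shares these bases with miR-101a, and miR-582-5p shares them with miR-101b as annotated. Neither passed edgeR at either dose. miR-144 had 336 ± 112, 586 ± 252 and 482 ± 107 normalized counts in the order of dose (SD; edgeR adjusted p = 0.126 and 0.263). miR-582-5p had 62.7 ± 27.9, 84.1 ± 4.99 and 81.5 ± 13.4 (edgeR adjusted p = 0.260 and 0.274). The seed list thus had 0 of 2 calls by edgeR at each dose; 1 had an unadjusted p under 0.05 at the low dose and 0 at the high dose, and DESeq2 called 1 and 0 and gave no adjusted p for 1 of the pair. Its median log2 difference was 0.61 at the low dose and 0.45 at the high dose.

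The Ptgs2 list held 7 miRNAs reported, mostly in human cells, to bind Ptgs2 as miR-101a does in mouse uterus. At the low dose 0 of 7 passed edgeR, with 3 at an unadjusted p under 0.05, 2 called by DESeq2 and a median log2 difference of 0.22. After the high dose 2 rose, 1 fell and 4 did not pass, with a median log2 difference of -0.10 against -0.03 over all miRNAs. miR-146a, which restrains Toll-like receptor signalling, rose by 1.43 ± 0.24 (log2, SE; edgeR adjusted p = 0.00163). miR-26b rose by 0.43 ± 0.10 (edgeR adjusted p = 0.0131), and miR-16 fell by 0.39 ± 0.11 (edgeR adjusted p = 0.0258). miR-199a-3p, of the family reported with miR-101a in the implanting uterus, had 6196 ± 962, 5050 ± 322 and 5509 ± 631 normalized counts (SD) and did not pass. miR-143 and miR-199a-5p did not pass either.

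The Ezh2 list had 8 of 9 members detected. At the low dose miR-26a rose by 0.61 ± 0.16 (log2, SE; edgeR adjusted p = 0.0406) and 7 did not pass. After the high dose miR-26a rose by 0.94 ± 0.16 (edgeR adjusted p = 0.00163), let-7c by 0.68 ± 0.14 (edgeR adjusted p = 0.00404) and miR-26b by the amount above, and 5 did not pass. The list's median log2 difference was 0.19 at the low dose and 0.36 at the high dose. Of those that did not pass at the high dose, miR-138, miR-214 and miR-98 stood at 0.39 ± 0.18, 0.33 ± 0.17 and 0.25 ± 0.13 (SE).

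The LPS list, miRNAs known from macrophages treated with LPS, had 10 of 13 members detected. At the low dose miR-222 rose by 0.91 ± 0.14 (edgeR adjusted p = 0.00254) and miR-21 by 0.52 ± 0.12 (edgeR adjusted p = 0.0195), and 8 did not pass. After the high dose miR-222 rose by 0.93 ± 0.14, miR-146a by the amount above, miR-155 by 0.72 ± 0.13 and miR-21 by 0.47 ± 0.12, with edgeR adjusted p from 0.000778 to 0.0131, and 6 did not pass. The median log2 difference was 0.21 at the low dose and 0.13 at the high dose. Among those that did not pass at the high dose, miR-125b-5p, miR-223 and let-7e stood at -0.33 ± 0.12, -0.24 ± 0.12 and -0.15 ± 0.11 (log2, SE). The fold of miR-222 was 1.87 and 1.91 at the low and high dose, where that of miR-101a was 1.87 and 2.88; this contrast between them was not tested.

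Between high and low dose 0 of the 24 listed miRNAs passed edgeR, against 0.488% of all detected miRNAs, and DESeq2 called 0. An unadjusted p under 0.05 was met by 7, with no share over all miRNAs to set beside it. Calls among the lists were sensitive to single mice at the low dose, where 3 passed in all. The count was 1 when control mouse 1 or 2, or low dose mouse 2 or 4, was left out. With scaling to the mRNA reference probes it was 0 at both doses, and miR-26a at the low dose lost its call in 15 of 25 alternatives. The low dose call of miR-21 was lost in 9 of 25. At the high dose the call of miR-16 was lost in 12 of 25, and those of miR-21 and miR-26b in 6 each. Each of the other calls was lost in 1 or 2 of 25.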

How the data were processed

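The authors deposited a raw table, handled here as estimated counts because the columns also hold binding densities with decimals; probes themselves had only whole values, so rounding changed nothing. Per the file headers each lane is 1 mouse, and no normalization is recorded. The sources used here name no counting software.

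Probes above the mean plus 2 SD of the negative controls in at least 3 lanes (205 of 566) were scaled by TMM and fitted with edgeR 4.0.16 (R 4.3.3, quasi-likelihood) with treatment as the only term and all 11 mice together. Benjamini-Hochberg adjustment ran over 205 miRNAs, with a threshold of 0.05. SE is the log2 difference divided by the square root of F. Alternatives included DESeq2 1.42.0, and the study's one-way analysis of variance for list counts (adjusted alike). In 5 simulated data sets of 205 miRNAs with 40 changed, the high dose comparison recovered 96.0% of log2 changes of 1 and 62.0% of 0.5, and 4.24% of calls were false. The simulated counts were independent, had the spread that was fitted, and rose as often as they fell. These rates therefore do not cover errors of scaling or of the model, and are not the rates of the calls reported here.

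The design plans 4 mice per treatment; the other control mouse was not analysed here. Members, lists and alternatives were chosen with earlier results of these data known. The naming rule took both paralogs, the 5 most similar miRNAs each, and of each list all called members and up to 3 more with the smallest p; miR-199a-5p and the miRNAs least like the pair were named after their values were seen. Mice of a treatment differed by 17.3 to 92.3 chi-square units per degree of freedom, so no lane copies the counts of another of its treatment. Whether the same RNA was run again cannot be told from these values. Sequences came from RefSeq (GRCm38.p6), where 442 of 566 probe names matched. Replicate numbers were not taken to pair mice.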

Additional observations from a re-analysis of the deposited data

Results flagged for a closer look

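In 68 sets of 4 mice, 2 values stood apart from the other mice of their group by Dixon's criterion (0.829 for 4 samples); chance gives about 1 in 20. Actb, scaled to the positive controls, was 1818 in high dose mouse 2 against 2975 to 3031 in the other high dose mice. The same mouse had the low B2m count given above, and its miR-101a and miR-101b lay inside the range of their group. miR-203 was 185 normalized counts in low dose mouse 2 against 212 to 218 in the other low dose mice.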

How the results depend on the processing

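Over 24 alternatives per comparison, no difference of miR-101a or miR-101b changed sign, and high minus low dose moved by less than the spread between mice (0.43 to 0.75 for miR-101a, 0.38 to 0.62 for miR-101b, log2). Scaling to the mRNA reference probes gave 0.18 ± 0.38 (SE) for miR-101b at the low dose. At the high dose it gave 1.19 ± 0.38 for miR-101a and 0.56 ± 0.38 for miR-101b. Without B2m the low dose values were 1.23 for miR-101a and 0.67 for miR-101b. Scaling to the mRNA reference probes moved the median of all miRNAs by -0.20 and -0.36 at the low and high dose. Without B2m it moved by 0.29 and 0.16, and with positive controls alone by 0.19 and 0.16. Relative to the median with the mRNA probes, miR-101a and miR-101b stood at 0.96 and 0.38 at the low dose. At the high dose they stood at 1.58 and 0.95. Subtracting the negative controls gave 1.17 and 1.91 for miR-101a at the low and high dose. Leaving out each mouse gave 0.78 to 1.03 and 1.43 to 1.63 for miR-101a, and 0.32 to 0.49 and 0.82 to 1.01 for miR-101b, at the low and high dose.

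Listed miRNAs called at the low dose (3) numbered 0 with the mRNA probes, 5 with the mRNA probes without B2m, with DESeq2 or with only the groups compared, 1 without the filter or with ligation control scaling (added after seeing the data), and 1 to 4 without each mouse. At the high dose (8) they numbered 5 with positive controls, ligation controls or no filter, 0 with the mRNA probes, 4 with those probes without B2m, and 7 to 8 without each mouse. Between the doses (0) they numbered 0 to 2 without each mouse, 2 without high dose mouse 3 and 1 without high dose mouse 2. The share of all miRNAs called in each alternative is not given here, so nothing about the listed miRNAs is read from these counts. The cause of the changes was not tested.

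Same-numbered mice correlated from -0.29 to 0.40 in their deviations, 2 of 10 pairs above 0.1, so the numbers were not taken as pairs. With the replicate number as a block, miR-101a stood at 0.86, 1.49 and 0.63 in the 3 comparisons and miR-101b at 0.39, 0.92 and 0.53, with 2, 6 and 0 listed miRNAs called. Counts of 75 to 363 limit the precision of both paralogs.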
